A study of Mus musculus with 68 samples.

Results

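Genes of the cell cycle and of DNA replication, 52 in number, were followed through the first and second pharyngeal arches of mouse embryos. They were chosen as a list of symbols, with earlier results of these data known. For each, 1 row of the deposited table was found, and they made up 52 of its 21948 rows. All 52 passed the filter on low values, a CPM (reads scaled to a common library size) of 1 or more in 3 or more libraries, as did 18428 genes in all. The arches are swellings beside the embryonic pharynx: PA1 forms the jaws, and PA2 lies next to it on the tail side. Whole arches of single embryos of the strain CBA/Ca/J x C57BL/10 were dissected by hand at stages E9.0, E9.5 and, later, E10.0 and E10.5, and polyadenylated RNA was amplified with a SMART-seq v4 kit. The genotype was labelled wildtype or Hoxa2-/-, which with 2 arches and 4 stages gave 16 groups of 3 to 5 libraries and 68 libraries in all. At E10.5 each of the 4 groups had 3 libraries, and at E9.0 wildtype PA1 had 5 and the other 3 groups had 4 each.

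Cells pass from a growth phase into DNA synthesis and then into mitosis. D-type cyclins with Cdk4 or Cdk6 and cyclin E with Cdk2 open the way to DNA synthesis by inactivating retinoblastoma-family proteins, which frees the E2F transcription factors. Cdc6 and Cdt1 load the Mcm2 to Mcm7 helicase ring onto replication origins, geminin (Gmnn) holds Cdt1 back, and Cdc45 and the GINS proteins turn the ring into a moving helicase. Mitosis is driven by Cdk1 with B-type cyclins, by the Polo and Aurora kinases and, at its end, by Cdc20 and the anaphase-promoting complex, and the CDK inhibitors (Cdkn1a, Cdkn1b, Cdkn2c, Cdkn2d) slow the cycle. Arches of these stages grow fast, and bulk RNA averages over every cell of the arch: fewer cells of a kind and less RNA per cell cannot be told apart in any value given here.

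Recovered reads per library ran from 8912251 to 20619153, and 3 reads corresponded to at most 0.328 CPM. That floor covers counting error only, because amplified reads without molecular identifiers are not independent molecules. The SD values given here measure the spread between the libraries of a group, and the SE values rest on the spread within groups pooled over all 68 libraries. Hoxa2 itself went against its label: mean PA2 CPM was 22.3 ± 1.40, 40.7 ± 6.80, 47.5 ± 4.49 and 58.3 ± 4.52 (SD) from E9.0 to E10.5 in the wildtype libraries, and 28.7 ± 8.41, 60.7 ± 23.0, 97.7 ± 13.3 and 132 ± 15.7 in those labelled Hoxa2-/-. Which part of the gene the allele removes is not given in the sources used here, so a count over the whole gene does not check that label. The 24 wildtype libraries of stages other than E10.0 also stood apart from the other 44. Of the 18428 genes tested, 17 were higher and 2 lower in them without overlap, none of them a cell cycle member. At so small a share of all genes, the absence of members there is no result about the members. Ski, for example, read 26.3 to 108 CPM in those 24 libraries, 9.52 to 15.5 in wildtype E10.0 and 9.28 to 22.8 in the libraries labelled Hoxa2-/-. Label and this division cannot be told apart except at E10.0, and stages were compared in wildtype only within the 24. Mesenchymal markers (6 of 6 in the table) summed to 323 to 716 CPM and were above 0 in every group. Replicate 2 of wildtype PA2 at E9.0 stood apart by red cell markers (6 of 6, 63564 CPM against 483 to 7387 in the other 67 libraries), 8 libraries by yolk sac markers and 15 by heart muscle markers, 2 of them by both. All 15 rich in heart muscle markers are PA2, 3 of 4 at E9.0 under each label, and with the red cell and yolk sac libraries they make up every PA2 library of E9.0. Results of PA2 at E9.0 therefore have no value without the libraries that stood apart.

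The stretches just before the starts of 5 members are shown because these genes carry the stage results below: Mcm3 and Mcm6 of the helicase ring and Cdc20 of mitosis, which were lower at E10.5 than at E9.0, and Mki67 and Rrm1, which were higher. Sequences are RefSeq's for GRCm38.p6, each written 5′ to 3′ on the gene's own strand. Those of Mcm3, Mcm6, Mki67 and Rrm1 end at the base before the RefSeq start, and that of Cdc20 leaves out the last 9 bases before it, which the gene annotation counts as part of the gene. Capitals mark E2F letters (TTTCCCGC, TTTCGCGC, TTTGCCGC or TTTGGCGC), the cell cycle homology region, or CHR (TTTGAA or TTCGAA), and CCAAT, on either strand. Overlapping matches share capitals.
Mcm3 (chr1:20820313-20820462, - strand): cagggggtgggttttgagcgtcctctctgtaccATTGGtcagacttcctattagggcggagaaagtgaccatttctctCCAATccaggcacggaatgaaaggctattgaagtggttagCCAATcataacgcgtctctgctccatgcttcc
Mcm6 (chr1:128359706-128359855, - strand): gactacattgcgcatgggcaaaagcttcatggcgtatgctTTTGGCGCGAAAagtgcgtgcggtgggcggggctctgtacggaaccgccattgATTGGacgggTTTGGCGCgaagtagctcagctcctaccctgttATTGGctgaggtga
Cdc20 (chr4:118437353-118437493, - strand): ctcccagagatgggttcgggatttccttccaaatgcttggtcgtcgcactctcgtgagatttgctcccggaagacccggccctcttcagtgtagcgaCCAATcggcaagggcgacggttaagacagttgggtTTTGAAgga
Mki67 (chr7:135716380-135716529, - strand): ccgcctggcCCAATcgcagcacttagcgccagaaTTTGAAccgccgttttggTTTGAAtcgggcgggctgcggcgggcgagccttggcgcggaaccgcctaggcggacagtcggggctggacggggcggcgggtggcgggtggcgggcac
Rrm1 (chr7:102441545-102441694, + strand): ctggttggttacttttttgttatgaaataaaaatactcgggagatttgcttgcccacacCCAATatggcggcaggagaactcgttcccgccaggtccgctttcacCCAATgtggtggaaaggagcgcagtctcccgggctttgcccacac

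Distances are counted from the RefSeq start, also for Cdc20, to the first letter of a match. Mcm6 held E2F letters at 110, 106 and 47 bases before its start, of which the first 2 overlap, and Mcm3, Cdc20, Mki67 and Rrm1 held none in these stretches. In the longer promoters counted below Mcm3 held 2 matches of E2F letters, while Cdc20, Mki67 and Rrm1 held none there either. Mki67 held CHR letters, known as an element of late cell cycle promoters, at 116 and 98 bases before its start and Cdc20 at 18 bases before its own. CCAAT stood in all 5: at 117, 72 and 32 bases in Mcm3, 57 and 14 in Mcm6, 53 in Cdc20, 141 in Mki67, and 91 and 45 in Rrm1. The RefSeq table had promoters for 42 of the 52 members, 47 promoters in all, each reaching from 250 bases before to 50 after the start. E2F letters stood in 10 of these 47 (21.3%) against 2.3% of 32851 promoters of the same length, CHR letters in 19 (40.4%) against 19.2%, and CCAAT in 35 (74.5%) against 37.4%. By role, E2F letters stood in 6 of 10 promoters of origin licensing and fork genes and in 0 of 8 of the mitotic kinase, checkpoint and anaphase-promoting group, which held CHR letters in 6 of 8. No E2F or CHR letters stood in the 6 promoters of CDK inhibitors or the 4 of G1 cyclins and kinases. A match describes letters only and shows no binding.

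Most of these genes were abundant. Per kilobase of exon, the median member stood at 48.1 CPM over the 68 libraries against 4.39 for the 18406 tested genes with a length. Rrm2, a subunit of the enzyme that makes deoxyribonucleotides, was highest at 388 CPM per kilobase, followed by the G1 kinase Cdk4 at 367, Cdc20 at 193 and Mcm5 at 164. The lowest were the inhibitors Cdkn2c at 0.302 and Cdkn1b at 0.427, the factor E2f2 at 1.54, Cdk6 at 1.75 and Cdkn1a at 4.01 CPM per kilobase. Mki67, whose protein coats mitotic chromosomes and is the usual stain for cycling cells, ranked only 39 of 52 at 16.5 CPM per kilobase. From the lowest to the highest library Cdk6 spanned 7.82-fold, Cdkn1a 6.88-fold, E2f2 5.77-fold, Cdkn1b 5.06-fold, the cyclin Ccnd1 4.69-fold, E2f7 3.39-fold and Mki67 3.24-fold, while the helicase subunit Mcm7 spanned 1.27-fold. Cdkn2c ran from 0.104 to 2.27 CPM with as few as 2 reads in a library, so its fold is not interpretable.

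From E9.0 to E10.5 these genes did not move as a block: Mcm3, Plk1 and Cdc20 fell and Mki67, Rrm1, Cdk2 and the inhibitor Cdkn1a rose in each arch and label. In wildtype PA1 11 members rose and 15 fell, against 21.0% and 21.5% of all tested genes. Wildtype PA2 had 11 higher and 9 lower (17.5% and 19.4% of all genes), PA1 labelled Hoxa2-/- had 8 and 11 (14.8% and 16.5%), and PA2 labelled Hoxa2-/- had 10 and 3 (15.8% and 15.1%). Of the 52 members 26, 20, 19 and 13 were thus called. The 11 higher in wildtype PA1 and the 8 higher in PA1 labelled Hoxa2-/- were near the share of all genes. The 9 lower in wildtype PA2 were near or below it, and the 3 lower in PA2 labelled Hoxa2-/- were below it. The other counts were above it, and whether by more than chance was not tested. The medians of the members' log2 differences were 0.06, 0.03, 0.04 and 0.06, beside 0.00, -0.01, -0.02 and 0.01 over all genes tested. Higher in all 4 comparisons were Mki67, Rrm1, Cdk2 and Cdkn1a, lower in all 4 were Mcm3, Plk1 and Cdc20, and 20 members were called in none. How many of all genes were called in all 4 or in none was not counted. These counts are therefore no result about the members as a set. The 4 comparisons use different libraries, but PA1 and PA2 come from the same embryos, and all share the spread estimated over the 68 libraries. In PA2 the counts hung on single libraries: the 20 calls of wildtype PA2 became 12 without replicate 1 of E10.5 and 11 without replicate 2 of E10.5, and the 13 of PA2 labelled Hoxa2-/- became 8 without replicate 3 of E9.0, a library rich in yolk sac markers. Fitted on the compared groups alone, wildtype PA2 had 6 calls and PA2 labelled Hoxa2-/- 4. The share of all genes was not counted in these smaller fits or with libraries left out.

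**Figure D1:**
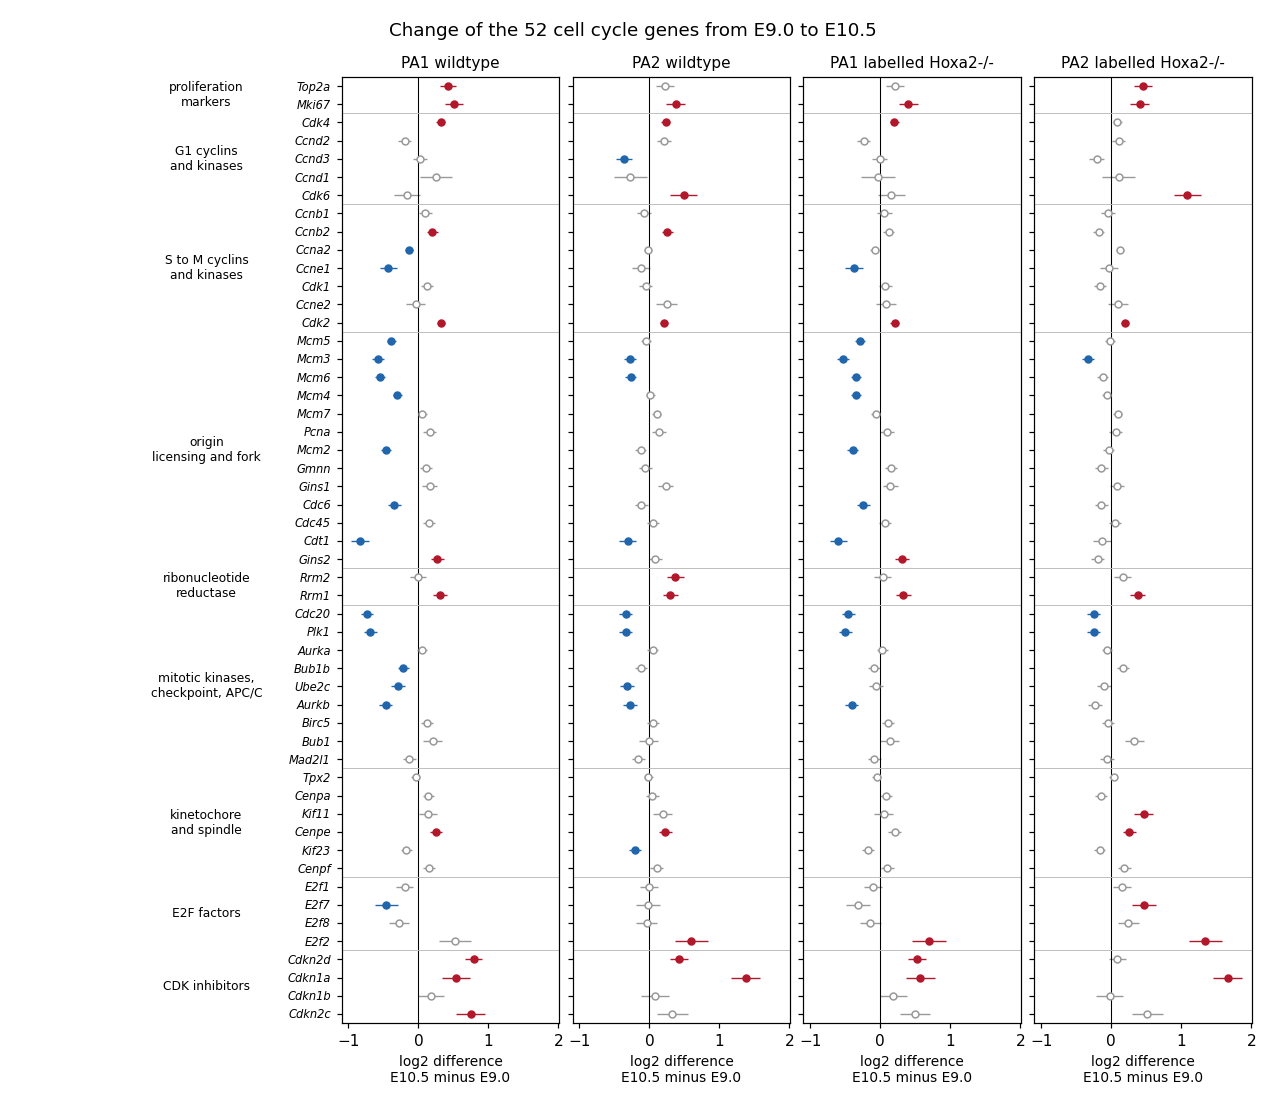
Log2 difference of E10.5 against E9.0 for each of the 52 members in 4 panels (wildtype and labelled Hoxa2-/-, PA1 and PA2), ordered by role. Points are limma estimates on log2(CPM + 1) with their standard errors, and filled red or blue points passed an adjusted p of 0.05. Mcm3, Plk1 and Cdc20 lie left of 0 and Mki67, Rrm1, Cdk2 and Cdkn1a right of 0 in all 4 panels, each as a filled point.

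Markers of cell types also differed over the same interval. Summed epithelial markers (5 of 5 in the table) were 551 to 1172 CPM over the 4 groups at E9.0 and 259 to 380 at E10.5. Mesenchymal markers went from 323 to 572 CPM to 551 to 695. Heart muscle markers (4 of 5 in the table) went in PA2 from 24.6 to 869 CPM at E9.0 to between 2.1 and 6.01 at E10.5, and in PA1 from 10.51 to 49.9 to 0.726 to 4.32. Endothelial markers (4 of 4) went from 151.73 to 250.32 CPM over wildtype and PA1 labelled Hoxa2-/- to 105.75 to 129.06, and in PA2 labelled Hoxa2-/- from 98.9 to 337 CPM to 147 to 181. Red cell markers went in PA1 from 1483 to 6385 CPM to 5066 to 7266 in wildtype and from 483 to 2377 to 2951 to 7387 under the other label. In PA2 they went from 3283 to 63564 CPM to 4294 to 7072 and from 1805 to 3824 to 1932 to 6941. Macrophage markers (5 of 5) were at most 5.13 CPM in sum at E9.0 and 4.42 to 20.2 CPM at E10.5. At E9.0 the macrophage gene Tyrobp was at 0 in every library of PA1 labelled Hoxa2-/- and C1qa in every library of PA2 labelled Hoxa2-/-. No other marker of these 6 lists was at 0 in all libraries of a group at these stages, and the part of these cells in the stage results was not tested.

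Mki67 in wildtype PA1 read 180, 203, 186, 170 and 170 CPM at E9.0 and 265, 255 and 257 CPM at E10.5. The 3 later libraries all lay above the 5 earlier ones, and the log2 difference was 0.51 (SE 0.131, adjusted p = 0.00116). In wildtype PA2 Mki67 read 171, 260, 171 and 154 CPM at E9.0 and 243, 257 and 221 at E10.5, with a log2 difference of 0.37 (SE 0.137, adjusted p = 0.0261). There the groups overlapped, since the E9.0 library rich in red cell markers was the highest of the 7. This call ended without each of 5 of the 7 libraries, replicates 1, 4 and 5 of E9.0 and replicates 1 and 2 of E10.5, with adjusted p up to 0.12, and with edgeR (0.0531).

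In PA1 labelled Hoxa2-/- Mki67 read 148, 140, 130 and 125 CPM at E9.0 and 174, 186 and 177 at E10.5, a log2 difference of 0.40 (SE 0.137, adjusted p = 0.0201) without overlap. In PA2 labelled Hoxa2-/- it read 121, 127, 81.7 and 173 CPM and then 173, 164 and 148, a log2 difference of 0.41 (SE 0.137, adjusted p = 0.0175). The last set overlapped, and the call ended without the lowest library, replicate 3 of E9.0 (log2 0.22, adjusted p = 0.214). It also ended without replicate 1 of E10.5 (0.0886) or replicate 2 of E10.5 (0.0511), and in PA1 without replicate 4 of E9.0 (0.0559) or replicate 2 of E10.5 (0.0681). Top2a, the topoisomerase that untangles replicated chromosomes, rose by 0.42 in wildtype PA1 (SE 0.12, adjusted p = 0.00335) and by 0.45 in PA2 labelled Hoxa2-/- (SE 0.125, adjusted p = 0.004; 0.12 without replicate 3 of E9.0). Its log2 differences in wildtype PA2 and in PA1 labelled Hoxa2-/- were 0.23 and 0.21, which did not pass.

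Of the 6 helicase subunits, 5 fell in PA1 under both labels, where 21.5% (wildtype) and 16.5% (labelled Hoxa2-/-) of all genes fell. Mcm3 in wildtype PA1 read 627, 558, 629, 575 and 623 CPM at E9.0 and 408, 401 and 400 CPM at E10.5. The groups lay far apart, and the log2 difference was -0.58 (SE 0.0827, adjusted p = 7.31e-08). In PA1 labelled Hoxa2-/- Mcm3 read 765, 656, 685 and 578 CPM and then 430, 504 and 452, a log2 difference of -0.53 (SE 0.0865, adjusted p = 2.28e-06) without overlap. Mcm6, Mcm2, Mcm5 and Mcm4 changed by -0.54, -0.46, -0.39 and -0.30 on the log2 scale in wildtype PA1 and by -0.34, -0.39, -0.29 and -0.35 in PA1 labelled Hoxa2-/-. Mcm7 was the exception, with log2 differences of 0.06 and -0.06 that did not pass.

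In PA2 fewer subunits of the ring passed, 2 in wildtype and 1 under the label Hoxa2-/-, where 19.4% and 15.1% of all genes fell. The 1 under that label is near the share of all genes. When the arch difference was tested directly, as given below, only Mcm5 of the ring passed in wildtype and only Mcm2 under the label Hoxa2-/-. Both of those calls ended when certain single libraries were left out. Mcm3 in wildtype PA2 read 557, 490, 492 and 578 CPM at E9.0 and 467, 385 and 465 at E10.5, a log2 difference of -0.27 (SE 0.0865, adjusted p = 0.0104). All 3 later libraries were below all 4 earlier ones, but without the lowest, replicate 2 of E10.5, the adjusted p was 0.155. In PA2 labelled Hoxa2-/- Mcm3 read 667, 610, 695 and 685 CPM and then 518, 570 and 498, a log2 difference of -0.33 (SE 0.0865, adjusted p = 0.00227), again without overlap. Mcm6 also fell in wildtype PA2, by -0.27 on the log2 scale (adjusted p = 0.0029; 0.073 without replicate 2 of E10.5). The differences of Mcm2, Mcm4, Mcm5 and Mcm7 in wildtype PA2 were -0.12, 0.02, -0.05 and 0.10, and none passed. The median summed level of the 6 subunits went from 3707 to 2922 CPM in wildtype PA1, from 3334 to 3294 in wildtype PA2, from 3897 to 3110 in PA1 labelled Hoxa2-/- and from 3696 to 3402 in PA2 labelled Hoxa2-/-.

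The loader Cdt1 had the most negative difference of the 52 in wildtype PA1: 98.4, 88.5, 88.7, 90.8 and 97.2 CPM at E9.0 became 48.1, 52 and 54.5 at E10.5, a log2 difference of -0.84 (SE 0.122, adjusted p = 1.09e-07). It was also lower in PA1 labelled Hoxa2-/- (log2 -0.60, adjusted p = 0.000199) and in wildtype PA2 (log2 -0.31, adjusted p = 0.0476, which ended without replicate 1 or 2 of E9.0 or of E10.5, up to 0.205), with -0.14 in PA2 labelled Hoxa2-/- (adjusted p = 0.45). Of the 13 licensing and fork genes, 7 fell and 1 rose in wildtype PA1 (21.5% and 21.0% of all genes) and likewise in PA1 labelled Hoxa2-/- (16.5% and 14.8%). In PA2 3 fell and 0 rose in wildtype (19.4% and 17.5%), and 1 fell and 0 rose under the label Hoxa2-/- (15.1% and 15.8%), shares of the 13 near or below those of all genes. The riser was Gins2, a GINS subunit (log2 0.27 and 0.31), whose wildtype call ended without replicate 1 (0.0859) or 2 (0.0544) of E10.5. The sliding clamp Pcna and the Cdt1 inhibitor Gmnn passed in none of the 4.

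Rrm1, the large subunit of ribonucleotide reductase, went the other way. In wildtype PA1 it read 663, 626, 596, 686 and 680 CPM at E9.0 and 801, 783 and 824 at E10.5, all later libraries above all earlier ones (log2 0.31, SE 0.0985, adjusted p = 0.00961). In PA2 labelled Hoxa2-/- it read 669, 658, 626 and 746 CPM and then 838, 913 and 872, again without overlap (log2 0.38, SE 0.103, adjusted p = 0.00355). Wildtype PA2 gave 0.30 (adjusted p = 0.018) and PA1 labelled Hoxa2-/- 0.33 (adjusted p = 0.0109). The wildtype PA2 call ended without the library rich in red cell markers (log2 0.21, adjusted p = 0.117) or without replicate 1 (0.0952) or 3 (0.0657) of E10.5, and that of PA1 labelled Hoxa2-/- without replicate 3 of E10.5 (0.0793).

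Cdk2, the kinase that fires origins with cyclins E and A, rose by 0.32, 0.21, 0.20 and 0.20 on the log2 scale in wildtype PA1 and PA2 and in PA1 and PA2 labelled Hoxa2-/- (adjusted p = 7.94e-06, 0.00559, 0.00756 and 0.0102). In wildtype PA1 it read 130, 132, 126, 131 and 135 CPM at E9.0 and 151, 182 and 160 at E10.5, with no overlap. The call of PA2 labelled Hoxa2-/- ended without replicate 4 of E9.0 (0.0899) or replicate 2 of E10.5 (0.0568). Its partner Ccne1 fell in PA1 alone among the calls, by -0.43 in wildtype and -0.38 under the other label, and had -0.12 and -0.04 in PA2, a difference between arches that did not pass its own test (adjusted p = 0.416 and 0.26). The second of these Ccne1 calls ended without replicate 2 of E9.0 (0.0533) or replicate 1 of E10.5 (0.129). Cdk4 rose by 0.32, 0.23 and 0.20 in the first 3 comparisons, the last of them lost without replicate 1 of E10.5 (0.0953). The D-type cyclins that bind it moved little: Ccnd1 ran from -0.27 to 0.25 and Ccnd2 from -0.24 to 0.21 on the log2 scale, and neither passed in any of the 4. The third, Ccnd3, fell in wildtype PA2 by -0.36 (adjusted p = 0.00764), a call that ended without the library rich in red cell markers (0.199). Cdk6 rose in PA2, by 0.49 in wildtype (adjusted p = 0.0385; lost without replicate 2 or 5 of E9.0 or 1 or 2 of E10.5, up to 0.162) and by 1.09 under the label Hoxa2-/- (1.2e-05, kept without each library in turn).

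Calls of the mitosis genes below were mostly lower ones, and each of their higher calls ended when certain single libraries were left out. Of the 9 mitotic kinase, checkpoint and anaphase-promoting genes, 5, 4, 3 and 2 fell in the 4 comparisons in the order used above (21.5%, 19.4%, 16.5% and 15.1% of all genes) and none rose. Of the 6 kinetochore and spindle genes 1, 1, 0 and 2 rose (21.0%, 17.5%, 14.8% and 15.8% of all genes). In wildtype PA2 1 of them fell (19.4%). The counts of 1 were near the shares of all genes. The B-type cyclin Ccnb2 rose by 0.20 in wildtype PA1 (adjusted p = 0.0274; lost without replicate 2 or 3 of E10.5, up to 0.0855) and by 0.25 in wildtype PA2 (0.00853; lost without replicate 4 of E9.0, 0.0595, or replicate 3 of E10.5, 0.078). It had 0.12 and -0.18 under the label Hoxa2-/- (adjusted p = 0.256 and 0.0758). Cdc20, the activator that lets anaphase begin, read 427, 456, 457, 412 and 456 CPM in wildtype PA1 at E9.0 and 254, 275 and 267 at E10.5. The groups did not overlap, and the log2 difference was -0.73 (SE 0.0885, adjusted p = 9.5e-10). In wildtype PA2 it read 398, 397, 321 and 347 CPM and then 286, 260 and 321, so that the highest later library (320.75) lay just under the lowest earlier one (321.48; log2 -0.34, SE 0.0925, adjusted p = 0.00282).

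In PA1 labelled Hoxa2-/- Cdc20 read 413, 459, 415 and 375 CPM and then 296, 313 and 295, without overlap (log2 -0.46, adjusted p = 9.44e-05). In PA2 labelled Hoxa2-/- it read 361, 412, 479 and 411 CPM and then 335, 361 and 345, where the highest later library (360.63) lay just under the lowest earlier one (360.82; log2 -0.25, adjusted p = 0.0299). That last call ended without replicate 3 of E9.0, rich in yolk sac markers (0.156), or without replicate 1 (0.112) or 3 (0.0742) of E10.5. Plk1, the Polo kinase of mitotic entry and spindle assembly, changed by -0.69, -0.34, -0.50 and -0.25 on the log2 scale. It read 307, 318, 323, 282 and 337 CPM in wildtype PA1 at E9.0 against 186, 195 and 200 at E10.5, and its call in PA2 labelled Hoxa2-/- (adjusted p = 0.0356) ended without replicate 2 or 3 of E9.0 or replicate 1 or 2 of E10.5 (up to 0.144). Aurora kinase B (Aurkb) fell in PA1 labelled Hoxa2-/- by -0.41 (adjusted p = 0.001) and the ubiquitin-conjugating enzyme Ube2c, which works with the anaphase-promoting complex, in wildtype PA2 by -0.33 (0.0083), both kept without each library in turn. The spindle motor Kif11 rose in PA2 labelled Hoxa2-/- by 0.46 (adjusted p = 0.00571; 0.118 without replicate 3 of E9.0, rich in yolk sac markers), and Kif23, a motor of cytokinesis, fell in wildtype PA2 by -0.21 (0.0453; lost without 6 of its 7 libraries, all but replicate 2 of E9.0, up to 0.161). The kinetochore motor Cenpe rose in 3 of the 4, by 0.25, 0.23 and 0.26, with 0.20 in PA1 labelled Hoxa2-/- (adjusted p = 0.0741). Its calls ended without replicate 1 of E10.5 in wildtype PA1 (0.105), without replicate 2 or 5 of E9.0 or 1 or 2 of E10.5 in wildtype PA2 (up to 0.216), and without replicate 3 of either stage in PA2 labelled Hoxa2-/- (up to 0.146).

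The 4 CDK inhibitors among the members rose or did not pass, and none of these fell. Cdkn1a, the p21 inhibitor that p53 is known to induce, read 7.37, 7.32, 7.79, 13.3 and 9.18 CPM in wildtype PA1 at E9.0 and 13.5, 11.0 and 15.2 at E10.5. There the groups overlapped through replicate 4 of E9.0 (log2 0.53, SE 0.199, adjusted p = 0.0253), and the call ended without each of 5 of the 8 libraries, replicates 1 to 3 of E9.0 and replicates 1 and 3 of E10.5, with adjusted p up to 0.132. In wildtype PA2 it read 5.51, 8.28, 9.49 and 5.36 CPM and then 19.0, 17.8 and 22.7, far apart (log2 1.38, SE 0.208, adjusted p = 3.1e-07). In PA2 labelled Hoxa2-/- it read 5.71, 4.44, 6.06 and 3.88 CPM and then 21.5, 13.0 and 20.3, again far apart (log2 1.67, SE 0.208, adjusted p = 5.09e-09). PA1 labelled Hoxa2-/- went from 7.18, 10.7, 7.27 and 9.78 CPM to 13.5, 14.2 and 12.2 (log2 0.57, adjusted p = 0.0291), a call that ended without replicate 1 or 3 of E9.0 or replicate 1 or 2 of E10.5 (up to 0.0929). The calls in PA2 were kept without each library in turn.

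Cdkn2d, an inhibitor of Cdk4 and Cdk6, rose by 0.79, 0.42 and 0.53 on the log2 scale in the first 3 comparisons and had 0.09 in PA2 labelled Hoxa2-/- (adjusted p = 0.652), where E9.0 libraries already read 21.9 to 26.6 CPM against 14.6 to 16.4 in wildtype PA1. Cdkn2c, of the same family, passed in wildtype PA1 alone (log2 0.75, adjusted p = 0.00266), with 0.33, 0.50 and 0.52 elsewhere, and was close to the 3-read floor at E9.0. Cdkn1b passed in none (log2 -0.03 to 0.18). Among the E2F factors, the activator E2f1 passed in none (log2 -0.19 to 0.16), while E2f2 rose by 0.60, 0.69 and 1.34 in the last 3 comparisons. E2f2 in PA2 labelled Hoxa2-/- read 5.28, 4.68, 2.37 and 3.32 CPM at E9.0 and 13.7, 10.6 and 9.46 at E10.5, without overlap (adjusted p = 1.16e-05), whereas its wildtype PA2 call (adjusted p = 0.0417) ended without replicate 4 or 5 of E9.0 or 2 or 3 of E10.5 (up to 0.307) and with edgeR (0.162). That in PA1 labelled Hoxa2-/- ended without replicate 1 of E9.0 or 1 or 2 of E10.5 (up to 0.0876). The repressor E2f7 was the only member that fell in 1 comparison and rose in another, by -0.46 in wildtype PA1 and 0.46 in PA2 labelled Hoxa2-/-. The first call ended without replicate 1 of E10.5 (0.0807) and the second without 5 of its 7 libraries, replicates 3 and 4 of E9.0 and each of E10.5 (up to 0.359).

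**Figure D2:**
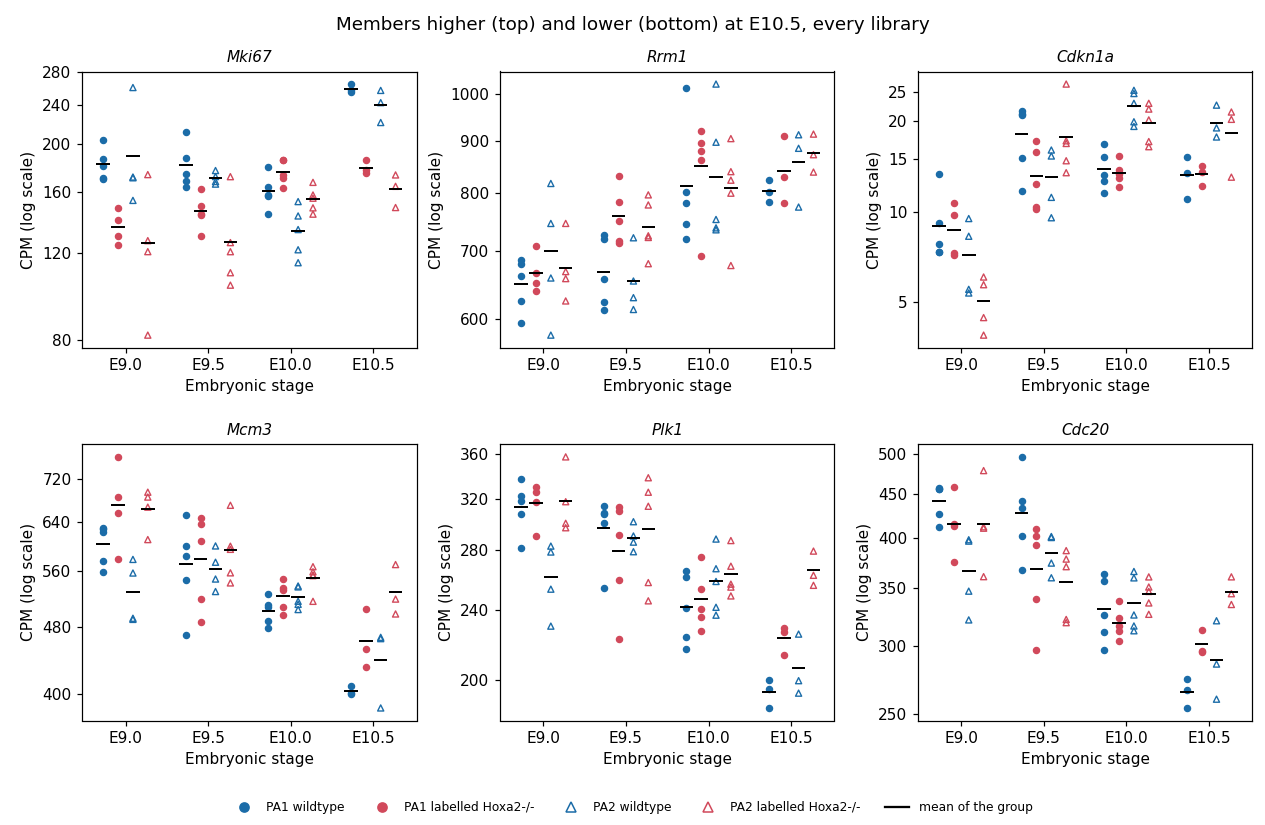
CPM of Mki67, Rrm1 and Cdkn1a (top) and Mcm3, Plk1 and Cdc20 (bottom) in every library by stage, arch and label, on log axes. Each point is 1 library. In wildtype PA1 Mcm3 goes from 558 to 629 CPM at E9.0 to 400 to 408 at E10.5, and in wildtype PA2 Cdkn1a goes from 5.36 to 9.49 CPM to 17.8 to 22.7.

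In wildtype E9.5 was compared with E9.0 and with E10.5, a longer step that passes over E10.0 because of the division. From E9.5 to E10.5, 10 members rose and 13 fell in wildtype PA1, 44.2% of the 52 where 40.9% of all genes were called, and 15 rose and 8 fell in wildtype PA2, again 44.2% where 34.3% of all genes were called. In wildtype PA1 the most negative were Cdk6 (log2 -0.89), Cdt1 (-0.79), Ccne1 (-0.71), Cdc20 (-0.68) and Plk1 (-0.61), and the most positive Cdkn2c (0.98), Cdkn2d (0.62), Top2a (0.59), Mki67 (0.52) and Cenpe (0.47). In wildtype PA2 they were Cdt1 (-0.61), Plk1 (-0.49), Cdc20 (-0.41), Ccne1 (-0.40) and Aurkb (-0.37), against Cdkn1a (0.59), Ccne2 (0.52), Cdkn2d (0.50), Mki67 (0.49) and Rrm1 (0.39). Of these 20 calls 2, both in PA2, ended when 1 library was left out: Ccne1 without replicate 2 of E10.5 (adjusted p = 0.159), and Cdkn1a without replicate 2 (0.0592) or 3 (0.106) of E9.5 or replicate 3 of E10.5 (0.109).

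From E9.0 to E9.5, 6 members rose and 4 fell in wildtype PA1 (6.73% of all genes called), and 2 rose and 1 fell in PA2 (6.68%). Cdk6, a G1 kinase, and Cdkn1a rose in both arches. Cdk6 went from 27.6, 23.1, 23.9, 23.0 and 23.9 CPM to 44.7, 34.4, 31.8, 53.3 and 43.2 in PA1 (log2 0.73, SE 0.16, adjusted p = 0.00403), and from 17.7, 13.7, 19.2 and 12.4 to 26.7, 28.9, 20.9 and 31.4 in PA2 (log2 0.74, SE 0.179, adjusted p = 0.00725). In neither arch did the stages overlap, and at E10.5 Cdk6 stood at 20.8 to 22.2 CPM in PA1 and 18.3 to 25.2 in PA2. Cdkn1a rose by 0.93 in PA1 (adjusted p = 0.000589) and by 0.79 in PA2 (adjusted p = 0.00803). Both PA1 calls were kept without each library in turn, and both PA2 calls ended without replicate 5 of E9.5 (adjusted p = 0.0511 for Cdk6 and 0.0542 for Cdkn1a). Also called were Ccnd1 (0.62, adjusted p = 0.0465), Gins2 (0.27, 0.0258), Gmnn (0.23, 0.0466), Bub1b (-0.28, 0.0116), Cenpf (-0.24, 0.0433), Kif23 (-0.22, 0.0431) and Mcm4 (-0.21, 0.0224) in PA1 and Kif23 (-0.25, 0.0414) in PA2. Of these 8 in the order given, Ccnd1 ended without replicates 2 to 5 of E9.0 or 1, 3, 4 or 5 of E9.5 (up to 0.235), Gins2 without replicate 2, 3 or 5 of E9.0 or 1 or 3 of E9.5 (up to 0.104) and Gmnn without any of E9.0 or 1 or 3 of E9.5 (up to 0.195). Bub1b ended without replicate 4 of E9.5 (0.0618), Cenpf without replicate 1, 3 or 4 of E9.0 or 1, 3 or 5 of E9.5 (up to 0.123), and Mcm4 without replicate 1 or 5 of E9.0 or 1 or 4 of E9.5 (up to 0.0803). Kif23 ended in PA1 without any but replicate 2 of either stage (up to 0.116) and in PA2 without replicate 1, 4 or 5 of E9.0 or 1, 3 or 5 of E9.5 (up to 0.189). The count of 10 in PA1 was as low as 3 with 1 library left out, without replicate 1 of E9.5, and lay between 4 and 6 without each replicate of E9.0 or without replicate 3 or 4 of E9.5. The count of 3 in PA2 became 0 without replicate 5 and 7 without replicate 2 of E9.5.

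Among the libraries labelled Hoxa2-/-, the step with the most calls was PA2 from E9.0 to E9.5, for all genes as well as for the members. There 6 members were higher and 6 lower, 23.1% of the 52 where 16.9% of all genes were called. Cdkn1a rose from 3.88 to 6.06 CPM to 13.5 to 26.7 (log2 1.62, SE 0.182, adjusted p = 8.06e-09), and Cdk6 from 6.81 to 14.9 CPM to 13.1 to 36.4 (log2 0.93, adjusted p = 0.000175). Cdkn1a did not overlap between these stages, Cdk6 did, and both calls were kept without each library in turn. E2f2 (0.74), E2f7 (0.57) and the spindle motor Kif11 (0.34) also rose, and Gins2 (-0.33), Ccnb2 (-0.32), Cenpa (-0.30), Birc5 (-0.26) and Cdc20 (-0.22) fell, but the count went from 12 to 3 without replicate 3 of E9.0, the library with 229 CPM of summed yolk sac markers (6 of 6 in the table) against 0.903 as the lowest of its group. The part of those cells was not tested.

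The other steps held few calls. In PA1 labelled Hoxa2-/- limma called 0 members from E9.0 to E9.5 (2.85% of all genes; 6 members had an unadjusted p under 0.05, edgeR called 0), Mcm4 alone from E9.5 to E10.0 (log2 -0.21, adjusted p = 0.0223; 4.40%) and 0 from E10.0 to E10.5 (0.298%; 5 unadjusted, edgeR 0). In PA2 labelled Hoxa2-/- Cdk6 alone rose from E9.5 to E10.0 (log2 0.63, adjusted p = 0.0112; 4.57%), and 0 members passed from E10.0 to E10.5 (0.239%; 5 unadjusted, edgeR 0). Cdk6 there was lost without replicate 1 of E9.5 (adjusted p = 0.0917), the count being 4 without replicate 4 of E9.5, whose Cdk6 level was the highest of its group. For the PA1 step to E10.0 the count was 0 without replicate 1, 2 or 5 of E9.5 or replicate 2 or 5 of E10.0, 2 without replicate 3 of E9.5 and 3 without replicate 4 of E9.5, and for the step from E9.0 it was 1 without replicate 4 of E9.0.

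**Figure D3:**
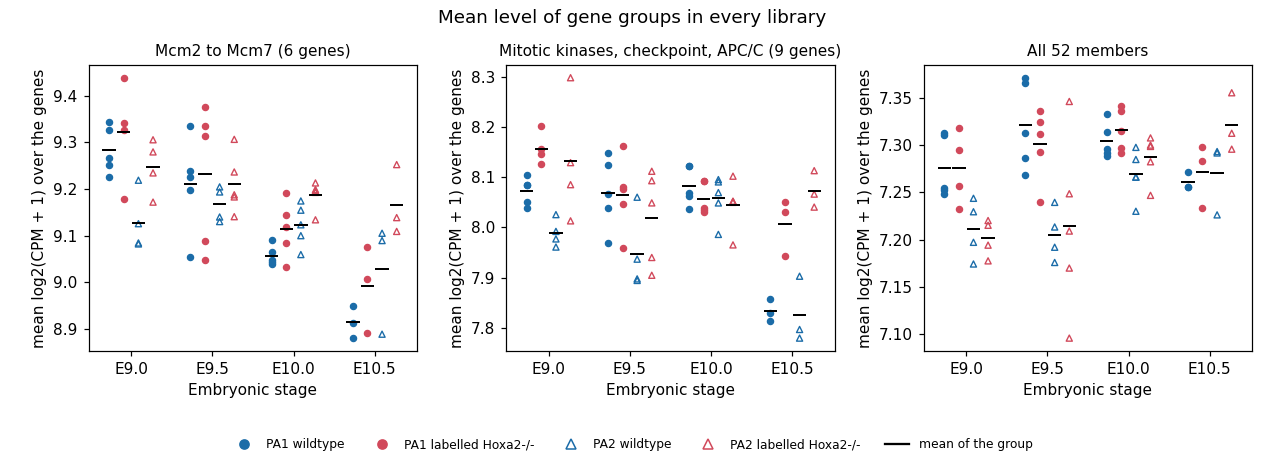
Mean log2(CPM + 1) of Mcm2 to Mcm7, of the mitotic kinase, checkpoint and anaphase-promoting genes and of all 52 members by stage, with points for libraries and short bars for group means, by arch and label. The Mcm mean in wildtype PA1 goes from 9.28 at E9.0 to 8.91 at E10.5, and in PA2 labelled Hoxa2-/- from 9.25 to 9.17.

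Ccnd2, Cdk6 and Ccne1 were the members most often lower in PA2 than in PA1, at stages before E10.5, and genes of replication and of mitosis were lower in wildtype PA2 too. Of the 52 members, 3 were higher and 12 lower in wildtype PA2 at E9.0 (10.2% and 8.53% of all genes), 0 and 14 at E9.5 (12.7% and 13.7%), 1 and 2 at E10.0 (4.51% and 1.43%) and 0 and 0 at E10.5 (0.868% and 0.651%; limma gave 3 members an unadjusted p under 0.05 and edgeR called 1). Under the label Hoxa2-/- the counts were 5 and 7 at E9.0 (12.1% and 12.5%), 0 and 5 at E9.5 (6.12% and 3.47%), 0 and 2 at E10.0 (3.13% and 1.10%) and 0 and 0 at E10.5 (0.982% and 0.385%; 10 unadjusted, edgeR 0). The groups of E10.5 have 3 libraries each, fewer than the earlier ones. Medians over the members were -0.01, -0.08, -0.04 and 0.01 in wildtype, beside -0.01, 0.01, -0.02 and -0.01 over all genes, and -0.06, -0.06, -0.04 and 0.05 beside -0.01, -0.02, 0.00 and 0.01 under the other label. With the embryo as a block, E10.0 had 5 and 4 calls and E10.5 had 1 and 1, for wildtype and Hoxa2-/- respectively. The share of all genes called with the block was not counted.

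The cyclin Ccnd2, which with Cdk4 or Cdk6 drives the exit from G1, was lower in PA2 in 5 of the 8 comparisons. In wildtype at E9.0 it read 575, 457, 538, 471 and 534 CPM in PA1 and 445, 375, 372 and 400 in PA2, without overlap (log2 -0.37, SE 0.0856, adjusted p = 0.00121). Under the label Hoxa2-/- at E9.0 it read 598, 475, 531 and 511 CPM in PA1 and 376, 402, 361 and 398 in PA2 (log2 -0.45, SE 0.0902, adjusted p = 0.00014). At E9.5 the differences were -0.30 (adjusted p = 0.00709) and -0.35 (0.00226), and at E10.0 -0.26 (0.0377) in wildtype and -0.23 (0.0964) under the other label. The wildtype call at E10.0 ended without replicate 1, 2, 4 or 5 of PA1 or 3 or 5 of PA2 (up to 0.128). At E10.5 they were 0.04 and -0.11, which did not pass.

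Cdk6 was lower in PA2 in 4 of the 8. At E9.0 wildtype libraries read 27.6, 23.1, 23.9, 23.0 and 23.9 CPM in PA1 and 17.7, 13.7, 19.2 and 12.4 in PA2, without overlap (log2 -0.61, SE 0.17, adjusted p = 0.00709). Libraries labelled Hoxa2-/- read 14.8, 21.4, 17.5 and 20.3 CPM in PA1 and 7.84, 10.7, 6.81 and 14.9 in PA2 (log2 -0.86, SE 0.179, adjusted p = 0.000256), which overlapped by 1 library of PA2. The E9.5 differences were -0.60 (adjusted p = 0.00732; 0.0606 without replicate 3 of PA2) and -0.49 (0.0416, lost without replicate 2, 4 or 5 of PA1 or 1, 2, 3 or 5 of PA2, up to 0.178, and with edgeR, 0.107). At E10.0 they were -0.07 and 0.10, and at E10.5 0.05 and 0.07, none of which passed.

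Cyclin E1 (Ccne1) was likewise lower in PA2 at E9.0 and E9.5 under both labels, by -0.48 and -0.47 on the log2 scale in wildtype (adjusted p = 0.00161 and 0.00149) and -0.38 and -0.35 under the other label (0.0148 and 0.0261). In wildtype at E9.0 it read 255, 231, 234, 231 and 243 CPM in PA1 and 170, 186, 155 and 175 in PA2, which did not overlap. The wildtype calls were kept without each library in turn, while that of E9.0 under the other label ended without replicate 1 of PA2 (0.0676) and that of E9.5 without replicate 1 or 2 of PA1 or 3 or 5 of PA2 (up to 0.176). Cyclin A2 (Ccna2) and geminin (Gmnn) were lower in 3 comparisons each, and Ccnd1 in wildtype at E9.5 (log2 -0.72, adjusted p = 0.00875; 0.0631 without replicate 1 of PA1, whose level of 100.2 CPM was its group's highest). Ccna2 differed by -0.23 in wildtype at E9.5 (adjusted p = 0.0012) and by -0.16 and -0.18 under the other label at E9.0 and E9.5 (0.034 and 0.0148). Gmnn differed by -0.29 and -0.24 in wildtype at E9.5 and E10.0 (0.00524 and 0.0426) and by -0.31 under the other label at E10.0 (0.00632). Of these 6 the 2 of wildtype E9.5 and that of Gmnn under the other label were kept without each library in turn, and the rest were not. Under the other label Ccna2 ended at E9.0 without replicate 1, 2 or 4 of PA1 or 1 of PA2 (up to 0.222) and at E9.5 without replicate 5 of either arch (up to 0.0596), and Gmnn ended in wildtype at E10.0 without replicates 2 to 5 of PA1 or 1, 2, 4 or 5 of PA2 (up to 0.155).

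Replication genes and mitotic genes were among the lower ones in wildtype. At E9.0 Cdt1 differed by -0.41 (adjusted p = 0.00613; 0.0508 without replicate 4 of PA2), Mcm4 by -0.26 (0.00185, kept without each library in turn), Cdc20 by -0.28 (0.0115; 0.0851 without replicate 4 of PA2), Plk1 by -0.26 (0.0197; lost without replicate 5 of PA1 or 4 or 5 of PA2, up to 0.119) and Bub1b by -0.23 (0.0196; lost without replicate 1 or 2 of PA2, up to 0.0993). At E9.5 the clamp Pcna differed by -0.39 (0.000498) and the chromosomal passenger protein Birc5 by -0.31 (0.00146), both kept without each library in turn. The kinases Cdk1 and Aurka differed there by -0.26 and -0.22 (0.0118 and 0.0138), of which the first ended without replicate 1 or 3 of PA1 or 3 or 5 of PA2 (up to 0.0593) and the second without replicate 1 or 3 of PA1 or 3 of PA2 (up to 0.0766). Cyclin E2 (Ccne2) at -0.33 (0.0488) ended without 7 of the 9 libraries, all but replicate 4 of PA1 and replicate 2 of PA2 (up to 0.166). The repressor E2f7 was lower at E9.0 by -0.47 in wildtype (0.0206; lost without replicate 1 of PA1 or 4 or 5 of PA2, up to 0.109) and by -0.67 under the other label (0.00127, kept). Under that label Cenpe was lower at E9.5 by -0.25 (0.0229; lost without 5 of 10 libraries, replicates 3 and 5 of PA1 and 1 to 3 of PA2, up to 0.0998) and Pcna at E10.0 by -0.27 (0.0414; lost without 7 of 10, replicates 2 to 5 of PA1 and 1, 3 and 5 of PA2, up to 0.178).

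Mki67 differed between arches in none of the 8, with log2 values from -0.27 to 0.03, and neither did Top2a, E2f1, Cdkn1b or Cdkn2c.

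Members higher in PA2 were few. Cdkn2d was higher at E9.0, by 0.36 in wildtype (adjusted p = 0.0165; 0.0555 without replicate 5 of PA2) and by 0.51 under the label Hoxa2-/- (0.000919). Ccnd3 and Gins2 were also higher at E9.0 under both labels: Ccnd3 by 0.31 and 0.34 (adjusted p = 0.0191 and 0.0107) and Gins2 by 0.23 and 0.32 (0.037 and 0.00468). The wildtype call of Ccnd3 ended without the library rich in red cell markers (0.483), and its call under the other label without replicate 4 of PA2 (0.0532). That of Gins2 under the label Hoxa2-/- ended without the library rich in yolk sac markers (0.0557), and in wildtype without replicate 2, 3 or 5 of PA1 or 1, 2 or 5 of PA2 (up to 0.125). In the libraries labelled Hoxa2-/- Ccnb2 was higher at E9.0 by 0.35 (0.000225, kept without each library in turn) and the centromeric histone Cenpa by 0.22 (0.0411; lost without replicate 1, 3 or 4 of PA1 or 3 or 4 of PA2, up to 0.282). Cdkn1a was lower in PA2 at E9.0 under the label Hoxa2-/- (log2 -0.69, adjusted p = 0.00578) and higher in wildtype PA2 at E10.0 (log2 0.66, adjusted p = 0.0098).

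Cells of other kinds differed between these arches too. At E9.0 summed heart muscle markers were 10.51 to 49.9 CPM in PA1 and 24.6 to 869 CPM in PA2, and neuronal markers (5 of 6 in the table) 34.4 to 52.2 and 99.998 to 196 CPM. Mesenchymal markers were 460 to 572 CPM in PA1 and 323 to 462 in PA2. At E10.5 heart muscle markers were at or below 6.01 CPM in both arches, neuronal markers were still 39.7 to 45.6 against 64.7 to 86.3 CPM, and mesenchymal markers 598 to 695 against 551 to 653. The neuronal gene Neurod1 was at 0 in all 3 libraries of wildtype PA2 at E10.5. The part of these cells in the arch differences was not tested. The counts moved by over 1.5 times without single libraries: the 15 of wildtype E9.0 became 9 without replicate 4 of PA2, the 14 of wildtype E9.5 became 8 without replicate 3 of PA1 or of PA2, and the 5 of E9.5 labelled Hoxa2-/- became 2 without replicate 5 of PA1 or replicate 3 or 5 of PA2 and 3 without replicate 2 of PA1 or replicate 1 or 2 of PA2. At E10.0 the 3 wildtype calls became 1 without replicate 2, 4 or 5 of PA1 or replicate 5 of PA2, and the 2 under the other label became 1 without replicate 2, 3, 4 or 5 of PA1 or replicate 1, 3 or 5 of PA2. At E10.5 the wildtype count became 1 without replicate 2 of either arch.

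**Figure D4:**
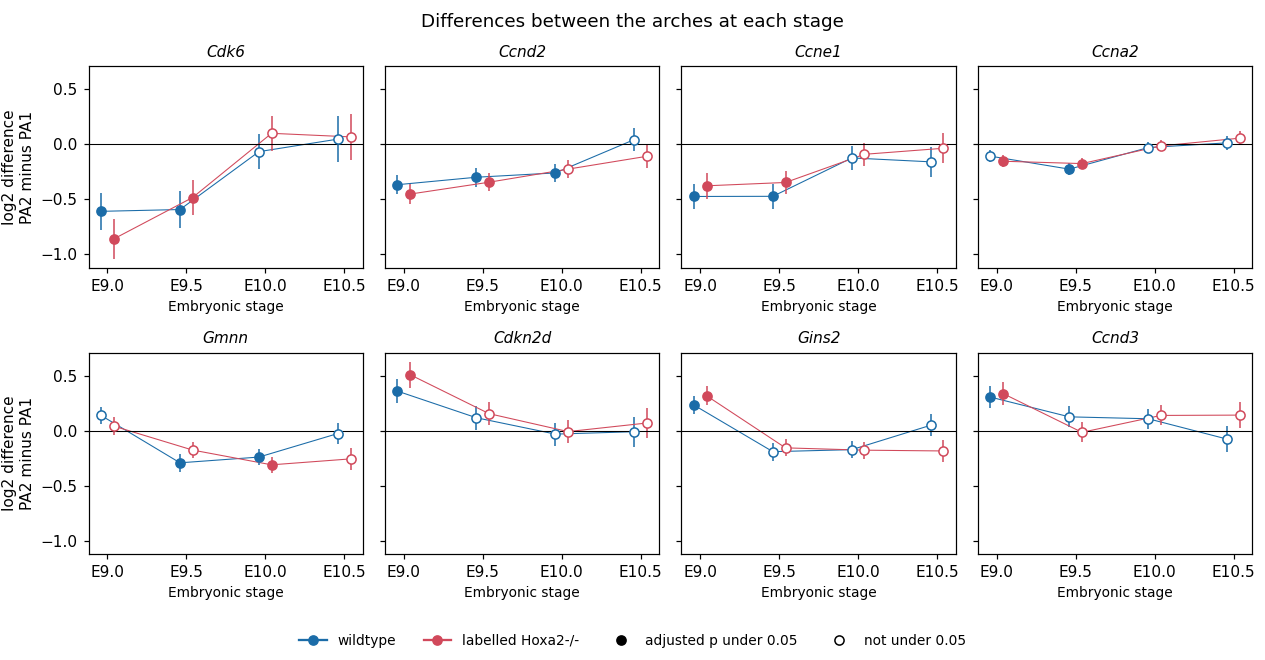
Log2 difference of PA2 against PA1 with its standard error for 8 members at the 4 stages under each label. Filled points passed an adjusted p of 0.05. Cdk6, Ccnd2 and Ccne1 lie below 0 at E9.0 and E9.5 and closer to 0 at E10.5, for Cdk6 at 0.05 and 0.07.

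Whether the E10.5 against E9.0 difference itself differed between the arches was tested directly. In wildtype 1 member passed (3.35% of all genes), Mcm5, whose change was 0.33 higher in PA2 (SE 0.0964, adjusted p = 0.0358). It ended without 9 of the 15 libraries (adjusted p up to 0.136): replicates 1 and 5 of PA1 and 1 and 4 of PA2 at E9.0, each of PA1 and 1 and 3 of PA2 at E10.5. In wildtype edgeR called 2. Under the label Hoxa2-/- 5 members passed (7.33% of all genes): Cdkn1a (1.09, adjusted p = 0.0153), Cdk6 (0.93, 0.0274), E2f7 (0.79, 0.0355) and Mcm2 (0.36, 0.0351) changed more positively in PA2, and Gins2 more negatively (-0.50, 0.0133). Cdkn1a in wildtype gave 0.85 in the same direction (SE 0.287, adjusted p = 0.091). The counts of 1 and 5 were near the share of all genes. With the embryo as a block 8 and 11 members passed, and with the compared groups alone 4 and 0, fits in which the share of all genes was not counted. Under the label Hoxa2-/- Gins2 was kept without each library in turn, and Cdkn1a ended without replicate 1 of PA2 at E10.5 (0.0564). Cdk6, Mcm2 and E2f7 ended without 6, 7 and 9 of the 14 libraries (up to 0.0965, 0.105 and 0.143).

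The counts of this test moved with single libraries. In wildtype it was 0 without replicate 1 or 5 of PA1 at E9.0, any replicate of PA1 at E10.5, replicate 4 of PA2 at E9.0 or replicate 1 or 3 of PA2 at E10.5, 2 without replicate 2 or 4 of PA1 or replicate 1 of PA2 at E9.0, and 3 without replicate 2 or 5 of PA2 at E9.0 or replicate 2 of PA2 at E10.5. Under the label Hoxa2-/- it was 3 without replicate 1, 2 or 3 of PA1 or replicate 3 of PA2 at E9.0 or replicate 1 of PA2 at E10.5, and 2 without replicate 1 of PA1 or replicate 2 or 3 of PA2 at E10.5.

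The Hoxa2-/- label went with lower Mki67 at the 3 stages at which the wildtype libraries form the division described above, with lower Cdkn1b at 2 of them (E9.0 and E10.5), and with no called member at E10.0. In PA1 1 member was higher and 3 lower at E9.0 (2.08% of all genes called), 5 and 9 at E9.5 (23.6%), none at E10.0 (0%; limma gave 1 member an unadjusted p under 0.05, edgeR called 0) and 1 and 3 at E10.5 (3.05%). In PA2 the counts were 5 and 6 at E9.0 (14.0%), 1 and 2 at E9.5 (4.48%), none at E10.0 (0.0814%; 3 unadjusted, edgeR 0) and 9 and 2 at E10.5 (10.3%). At E10.0, where both labels have 5 libraries in each arch and lie on one side of the division, member differences ran from -0.11 to 0.20 in PA1 and from -0.18 to 0.25 in PA2 on the log2 scale. These comparisons use the libraries of the stage and arch comparisons again.

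Mki67 was lower in 6 of the 8, by -0.42, -0.31 and -0.53 on the log2 scale in PA1 at E9.0, at E9.5 and at E10.5 (adjusted p = 0.0455, 0.0402 and 0.0294) and by -0.60, -0.45 and -0.57 in PA2 (0.000673, 0.0176 and 0.0069). In PA1 at E10.5 it read 265, 255 and 257 CPM in wildtype and 174, 186 and 177 under the label Hoxa2-/-, and the 2 groups lay far apart. At E10.0 wildtype PA1 read 163, 144, 180, 158 and 157 CPM, below wildtype at the other 3 stages in its mean, and the libraries labelled Hoxa2-/- read 186, 173, 162, 185 and 171. The log2 differences at E10.0 were 0.13 (SE 0.113) in PA1 and 0.22 (SE 0.113, adjusted p = 0.66) in PA2. The calls in PA1 at E9.0 and E10.5 ended without any 1 of their 9 and 6 libraries, with adjusted p up to 0.142 and 0.118, and that at E9.5 without replicate 1 or 3 of wildtype or 1, 2 or 5 of the other label (up to 0.15). In PA2 that at E9.5 ended without replicate 2 of wildtype or 1 or 2 of the other label (up to 0.0658) and that at E10.5 without replicate 3 labelled Hoxa2-/- (0.0507). At E9.0 it was kept without each library in turn but not without the libraries rich in red cell and yolk sac markers together (log2 -0.25, adjusted p = 0.149).

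Cdkn1b, the p27 inhibitor, was lower in 4 of the 8: by -0.73 and -0.72 in PA1 at E9.0 and E10.5 (adjusted p = 0.0111 and 0.0403) and by -0.69 and -0.80 in PA2 (0.00598 and 0.0077). In PA2 at E10.5 it read 3.05, 3.90 and 2.99 CPM in wildtype and 1.14, 1.92 and 1.40 under the other label, without overlap. Its levels are low, and wildtype E10.0 libraries (0.863 to 1.60 CPM in PA1 and 1.08 to 2.84 in PA2) overlapped those labelled Hoxa2-/- at that stage (1.01 to 2.28 and 0.825 to 2.42). The PA1 call ended at E9.0 without replicate 3 labelled Hoxa2-/- (0.074) and at E10.5 without any of the 6 libraries, and the PA2 call at E10.5 without replicate 2 of wildtype (0.0562) or replicate 1 of the other label (0.0528).

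Cenpf, a kinetochore protein, was lower in 3 of the 8 (-0.34 and -0.39 in PA1 at E9.0 and E10.5, -0.34 in PA2 at E9.0), calls that ended without replicate 4 of wildtype or 3 labelled Hoxa2-/- at E9.0 in PA1 (up to 0.0618), replicate 1 of either label at E10.5 (up to 0.11) and replicate 3 labelled Hoxa2-/- in PA2 (0.0523). The spindle checkpoint genes Bub1 and Bub1b were higher in 3 each. Bub1b in PA2 at E10.5 read 334, 340 and 353 CPM in wildtype and 429, 479 and 446 under the label Hoxa2-/-, far apart (log2 0.40, SE 0.089, adjusted p = 0.0018). It was higher by 0.36 in PA1 at E9.5 (adjusted p = 0.000133) and by 0.23 in PA2 at E9.5 (0.049), of which the last ended without any 1 of its 9 libraries. Bub1 was higher by 0.42 and 0.41 in PA1 at E9.0 and E9.5 (0.0471 and 0.00695) and by 0.50 in PA2 at E10.5 (0.0199). The first ended without replicate 2 or 3 of wildtype or any labelled Hoxa2-/- (up to 0.255) and the last without replicate 1 or 3 of either label (up to 0.093). At E10.0 Bub1 differed by 0.04 in PA1 and 0.00 in PA2, and Bub1b by 0.05 and 0.09, and none passed. Of the rest, Rrm2, Aurkb, Mcm3, Ccnb2 and Plk1 were higher in PA2 at E9.0, by 0.45, 0.35, 0.33, 0.31 and 0.28, and Cdk6 and Top2a lower, by -0.64 and -0.40. Without replicate 4 of wildtype Aurkb, Plk1, Cdk6 and Top2a did not pass (0.0583, 0.121, 0.0609 and 0.0727), nor did Plk1, Cdk6 and Top2a without replicate 3 labelled Hoxa2-/- (0.0886, 0.0647 and 0.262) or Plk1 without replicate 5 of wildtype (0.0534). In PA1 at E9.5 Cdk6 was lower by -0.56, Ccnd1 by -0.54 and Ccnd2 by -0.31, and Kif11 higher by 0.44, of which Ccnd1 ended without replicate 1, 3 or 4 of wildtype or 3 of the other label (up to 0.261).

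Among the remaining differences between labels, in PA1 at E9.5 Ube2c was lower by -0.27 (adjusted p = 0.0143) and Cdc6 higher by 0.21 (0.0374), each lost without 4 of the 10 libraries (up to 0.0731 and 0.158), and the spindle protein Tpx2 higher by 0.20 (0.00833; 0.0661 without replicate 4 of wildtype). Ube2c rested on replicates 1, 3 and 4 of wildtype and 3 of the other label, and Cdc6 on replicates 1 and 4 of wildtype and 1 and 2 of the other label. Mcm6 was higher in PA1 at E10.5 by 0.28 (0.0311; lost without replicate 1 or 3 of wildtype or 2 or 3 of the other label, up to 0.183), and Ccnd2 lower in PA2 at E9.5 by -0.36 (0.00832; 0.0507 without replicate 5 labelled Hoxa2-/-). In PA2 at E10.5 Cdt1, Ccne1 and E2f1 were higher by 0.43, 0.41 and 0.40 (0.0313, 0.0428 and 0.0484), and each ended without 5 of the 6 libraries (up to 0.153, 0.282 and 0.237). The library whose absence kept the call was replicate 3 of wildtype for Cdt1 and Ccne1 and replicate 3 labelled Hoxa2-/- for E2f1.

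Counts of these comparisons moved by over 1.5 times without single libraries. In PA1 the 4 calls of E9.0 became 2 without replicate 2, 3 or 4 of wildtype or 1, 2 or 4 labelled Hoxa2-/- and 0 without replicate 3 of that label. The 14 of E9.5 became 6 without replicate 1 and 8 without replicate 3 or 4 of wildtype. The 4 of E10.5 became 0, 2 and 1 without replicates 1, 2 and 3 of wildtype and 1 without each replicate of the other label. In PA2 the 11 of E9.0 became 6 without replicate 4 of wildtype, and the 3 of E9.5 became 1 without replicate 2 of wildtype or 1, 2 or 5 labelled Hoxa2-/-. The 11 of E10.5 became 6 without replicate 2 labelled Hoxa2-/- and 4 without replicate 1 or 2 of wildtype or 1 or 3 of the other label. Red cell markers at E9.0 summed to 1483 to 63564 CPM over the wildtype libraries and 483 to 3824 over those labelled Hoxa2-/-, and their part was not tested.

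**Figure D5:**
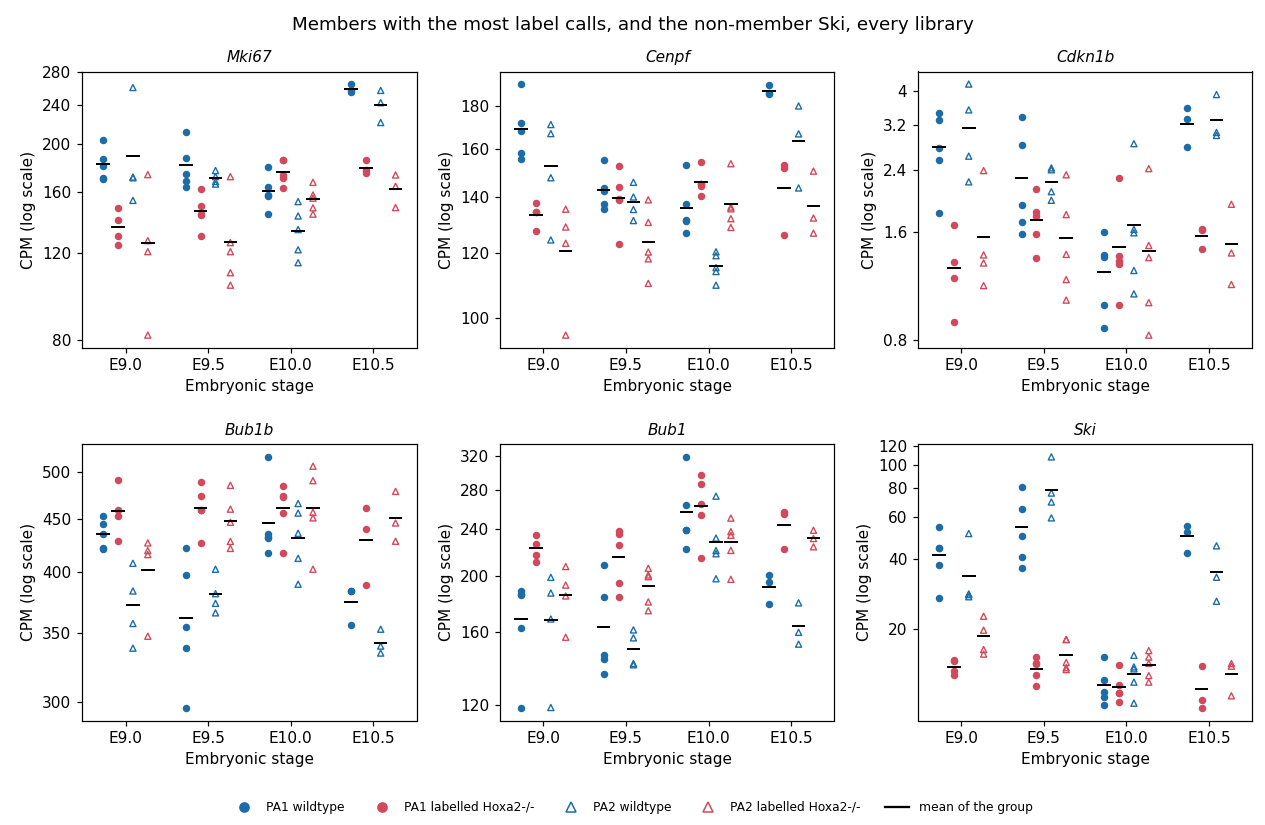
CPM of Mki67, Cenpf, Cdkn1b, Bub1b, Bub1 and, for the division between libraries, Ski, in every library by stage, arch and label, on log axes. Each point is 1 library. Ski lies at 26.3 CPM or above in wildtype at stages other than E10.0 and at 22.8 or below in all other libraries, and the wildtype Mki67 points of E10.0 are among the lowest wildtype ones.

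Whether the label's effect differed between PA2 and PA1 was tested at each stage, and limma called 0 of the 52 members at E9.0 (0% of all genes), E9.5 (0.0109%), E10.0 (0.0163%) and E10.5 (0.0380%). At an unadjusted p under 0.05 there were 4, 2, 0 and 0 members, and edgeR called 0 at all 4 stages. PA1 is an arch in which Hoxa2 stood at or below a group mean of 0.519 CPM.

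The other genes of the pathway were counted from E9.0 to E10.5 too. Of 88 tested replication, mitosis and regulator genes outside the 52 (89 listed), 26 rose and 22 fell in wildtype PA1 (21.0% and 21.5% of all genes), 25 and 9 in wildtype PA2 (17.5% and 19.4%), 19 and 14 in PA1 labelled Hoxa2-/- (14.8% and 16.5%) and 23 and 7 in PA2 labelled Hoxa2-/- (15.8% and 15.1%). The 14 that fell in PA1 labelled Hoxa2-/- were near the share of all genes, and the 9 and 7 in PA2 below it. Growth-promoting transcription factors of the Myc family fell: Myc by -1.94, -0.83 and -1.32 in the first 3 comparisons, and Mycn by -1.47, -1.46, -1.27 and -1.11 in all 4. The inhibitor Cdkn1c rose in PA1, by 1.54 and 1.34, and fell in PA2 labelled Hoxa2-/- by -0.76. The retinoblastoma relative Rbl2 rose by 0.80 and 0.90 in wildtype PA1 and PA2, Rbl1 by 0.53, 0.66, 0.53 and 0.60 in all 4, and the polymerase subunit Pola1 by 0.97 in PA2 labelled Hoxa2-/-. Lin52 rose in PA1 under both labels (0.64 and 0.62), the inhibitor Cdkn2b in wildtype PA2 (0.71), the spindle gene Nusap1 in PA1 labelled Hoxa2-/- (0.54) and Incenp in PA2 labelled Hoxa2-/- (0.55). The cohesin protease Espl1 fell in PA1 labelled Hoxa2-/- (-0.70) and the origin protein Orc5 in PA2 labelled Hoxa2-/- (-0.45). The repressor E2f4 changed by -0.82, -0.54 and -0.52 in the first 3, and E2f5 by -0.38, -0.56, -0.26 and -0.43 in all 4.

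Since Cdkn1a is a p53 target, 16 others were counted. Of these, 6 rose and 5 fell in wildtype PA1 (21.0% and 21.5% of all genes), 4 and 2 in wildtype PA2 (17.5% and 19.4%), 4 and 3 in PA1 labelled Hoxa2-/- (14.8% and 16.5%) and 5 and 2 in PA2 labelled Hoxa2-/- (15.8% and 15.1%). The 3 that fell in PA1 and the 2 in each PA2 comparison were near or below the share of all genes. The desmosomal membrane protein Perp rose by 1.68, 2.44, 1.67 and 1.81 and the stress gene Trp53inp1 by 1.89, 1.37, 1.35 and 0.92. Sesn1 rose by 1.10, 0.75, 0.87 and 0.56, and Phlda3 by 0.57 in wildtype PA1 and by 0.94 and 0.82 in PA1 and PA2 labelled Hoxa2-/-. Eda2r (-1.28 and -0.91) and the nuclease Aen (-0.79 and -0.63) fell in PA1 under both labels, Aen also in wildtype PA2 (-0.58), and the antiproliferative gene Btg2 fell in PA2 (-0.46 and -0.60) and rose in wildtype PA1 (0.64). Zmat3 fell in wildtype PA1 (-0.77), Gtse1 in PA1 labelled Hoxa2-/- (-0.38) and the kinase Plk2 in PA2 labelled Hoxa2-/- (-0.45).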

How the data were processed

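RNA-seq values of 68 libraries in 16 groups of 3 to 5 were used. The authors deposited 1 table of normalised signal, close to reads scaled to library size (CPM) but with column totals of 926298 to 1051959. Per the submitters' processing notes TopHat2 2.1.1, R 3.3.2, bcl2fastq 2.18 and the build mm10 were used, in roles the notes do not state. The counting program, the annotation and whether strand was used are not given in the sources used here, so reads of overlapping or antisense genes cannot be told apart. Whole reads were recovered from the steps of the values: 100.0% of the values came out whole within 0.01 (largest distance 9.3e-05). They gave 8912251 to 20619153 reads per library. The design had assumed CPM, and the test is the one CPM needs.

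Values were tested as log2(CPM + 1), a scale that understates changes of low genes, with limma 3.58.1 (R 4.3.3, trended moderation). One mean per group was fitted over all 68 libraries for the 18428 genes that reached a CPM of 1 in 3 or more libraries. Every adjusted p in the text is limma's with Benjamini-Hochberg adjustment over those genes, unless edgeR is named, and passing means an adjusted p under 0.05. There were 36 contrasts. P-values rest on 1 moderated spread per gene, estimated between libraries within groups over all 68 libraries, and not on the compared groups alone. The libraries of a group are separate embryos where the labels number them. Alternatives were edgeR 4.0.16 on the recovered reads, median-of-ratios scaling, a pseudocount of 0.25 or 5, a stricter filter (5 CPM) or none, only the compared groups, each library left out in turn, and libraries rich in blood, heart or yolk sac markers left out.

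Both arches came from single embryos per the labels, so arch libraries with the same number are pairs. Over 33 such pairs the median correlation of deviations from the group means was 0.347, above 0.1 in 30, against -0.124 over 116 pairs with different numbers. An embryo block (statmod 1.5.0, correlation 0.22) was an alternative. The 116 replicate pairs differed by more than sampling noise (chi-square per degree of freedom 5.91 to 96.9), so none was merged.

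The members and the other gene lists were chosen with earlier results of these data known. Named were up to 5 called members in each direction per contrast by size, and always Mki67, Top2a, Ccnd1, Ccnd2, Mcm2 to Mcm7, E2f1, Cdkn1a, Cdkn1b and Cdkn2c; other members were chosen after their values were seen. Of the other lists up to 3 in each direction per stage comparison were named. The limma fit was run on simulated data for the label contrast of PA2 at E10.0 only. That simulation held no paired arches and no marker-rich libraries, so it does not check the other contrasts.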

Additional observations from a re-analysis of the deposited data

Results flagged for a closer look

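Dixon's ratio was taken over 120 sets of values, each of 1 gene in 1 group of 4 or 5 libraries. In 11 sets 1 library lay far from the others, where chance gives about 1 in 20. The sets cover 10 genes in the same libraries and are not independent. High libraries were Mki67 in replicate 2 of wildtype PA2 at E9.0 (260.5 CPM), Ccnd1 in replicate 4 of PA2 labelled Hoxa2-/- at E10.0 (48.331 CPM), and Cdk6 in replicate 1 of wildtype PA1 at E9.0 (27.587 CPM). Replicate 4 of PA2 labelled Hoxa2-/- at E9.5 was high for both Cdk6 (36.356 CPM) and Cdkn1a (26.657 CPM), and replicate 3 of PA1 labelled Hoxa2-/- at E10.0 for Cdkn1b (2.2805 CPM). Low libraries were Top2a in replicate 3 of PA2 labelled Hoxa2-/- at E9.0 (239.06 CPM), Ccnd1 in replicate 3 of PA1 labelled Hoxa2-/- at E9.5 (21.353 CPM), and Ccnd2 in replicate 3 of wildtype PA1 at E10.0 (450.39 CPM). Mcm3 was low in replicate 5 of PA2 labelled Hoxa2-/- at E10.0 (515.06 CPM) and Plk1 in replicate 5 of wildtype PA1 at E9.5 (254.31 CPM). Of these, the Mki67 library was the one rich in red cell markers, and those of Top2a and of Ccnd1 at both stages were rich in yolk sac markers.

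The E10.5 against E9.0 difference itself differed between PA2 and PA1, by a test of the difference itself, for few members. In wildtype 1 member passed (1.9%, against 3.35% of all genes) and under the label Hoxa2-/- 5 (9.6%, against 7.33%). Both counts were near the share of all genes, and only the call of Gins2 was kept without each library in turn. In wildtype Mcm5 changed by 0.333 more on the log2 scale in PA2. Under the label Hoxa2-/- the differences were 1.093 for Cdkn1a, 0.93 for Cdk6, 0.788 for E2f7, 0.356 for Mcm2 and -0.503 for Gins2.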

How the results depend on the processing

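Over all 36 contrasts 255 member calls were made, of which 112 passed without each library in turn, and no value changed sign. The 5 CPM filter gave no value for 6 of them and leaving out the 22 marker-rich libraries none for 92. Of the 158 with a value under every other alternative, 101 passed under each of them and 71 also without each library in turn. The other alternatives ended 110 calls with only the compared groups, 50 and 35 with marker-rich libraries left out, 21 with edgeR, 17 with no filter, 9 with median-of-ratios scaling, 2 and 1 with pseudocounts of 0.25 and 5, and none with the embryo block. Which property of the smaller fits ended calls was not tested. The share of all genes called was counted for the main fit and edgeR only. Whether the counts below moved more for the members than for all genes was therefore not tested. Depth limits Cdkn2c and Cdkn1b, which had few reads. The largest shift of the median of all genes under another scaling was 0.022 log2.

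With only the compared groups the counts of called members became 6 (wildtype PA2) and 4 (PA2 labelled Hoxa2-/-) from E9.0 to E10.5. For the steps they became 2 (wildtype PA1, E9.0 to E9.5), 1 (wildtype PA2, E9.0 to E9.5), 1 (PA2 labelled Hoxa2-/-, E9.0 to E9.5) and 0 and 0 (PA1 and PA2 labelled Hoxa2-/-, E9.5 to E10.0). Between arches they became 8 and 1 (wildtype E9.5 and E10.0) and 2, 0 and 4 (labelled Hoxa2-/- at E9.0, E9.5 and E10.0). Between labels they became 3 (PA1 E9.5), 0 (PA2 E9.0) and 1 (PA2 E9.5), and for the arch difference of the stage change 4 in wildtype and 0 under the other label.

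Without filter the counts became 5 (wildtype PA1, E9.0 to E9.5) and 2 (label, PA1 E9.0). Without the 22 libraries rich in red cell, heart or yolk sac markers, which left no value for 10 contrasts, they became 4 (wildtype PA1, E9.0 to E9.5), 0 and 0 (PA1 and PA2 labelled Hoxa2-/-, E9.5 to E10.0), 0, 0 and 0 (arches, wildtype E10.0 and labelled Hoxa2-/- at E9.5 and E10.0), 1 (label, PA1 E9.0) and 0 (label, PA2 E9.5). Without 9 libraries rich in red cell or yolk sac markers, an alternative chosen after seeing the data, they became 9 and 3 (E9.0 to E9.5 in wildtype PA2 and in PA2 labelled Hoxa2-/-), 1 and 3 (arches, wildtype E10.5 and labelled Hoxa2-/- E9.5), 1 and 7 (label at E9.0 in PA1 and PA2), and 5 and 3 (stage by arch in wildtype and labelled Hoxa2-/-). Median-of-ratios scaling gave 1 and 1 for the wildtype arches at E10.0 and E10.5, and 2 for stage by arch in wildtype. Stage by arch in wildtype was also 2 with edgeR, with a pseudocount of 5 and with a filter of 5 CPM, and edgeR gave 2 under the other label and 1 for the wildtype arches at E10.5.

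With the embryo as replicate block the arch counts became 5 and 1 (wildtype E10.0 and E10.5) and 4 and 1 (labelled Hoxa2-/- at E10.0 and E10.5), and stage by arch 8 in wildtype and 11 under the other label. The block ended no call and moved no other count by over 1.5 times.

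With 1 library left out at a time, counts from E9.0 to E10.5 ran 21 to 27 (wildtype PA1), 11 to 17 (wildtype PA2), 15 to 19 and 8 to 17 (PA1 and PA2 labelled Hoxa2-/-). Steps in wildtype ran 3 to 15 and 21 to 25 in PA1 and 0 to 7 and 18 to 22 in PA2, and under the other label 0 to 1 and 0 to 3 in PA1 and 3 to 15 and 0 to 4 in PA2. Arch counts ran 9 to 14, 8 to 17, 1 to 2 and 0 to 1 in wildtype from E9.0 to E10.5, and 9 to 14, 2 to 7 and 1 to 2 under the other label from E9.0 to E10.0. Label counts at E9.0, at E9.5 and at E10.5 ran 0 to 3, 6 to 19 and 0 to 2 in PA1 and 6 to 13, 1 to 3 and 4 to 11 in PA2, and stage by arch 0 to 3 in wildtype and 2 to 6 under the other label. The contrasts not named here stayed at 0 members.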
